A study of Mus musculus with 10 samples.

Results

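The receptors for glutamate and gamma-aminobutyric acid (GABA) are encoded by large gene families, and 34 of their genes were followed here through the accessible chromatin of the neonatal mouse cochlea. They are 4 AMPA receptor genes (Gria1 to Gria4), Grid1 of the delta class, 5 kainate receptor genes (Grik1 to Grik5), 7 NMDA receptor genes, 7 metabotropic glutamate receptor genes, 8 GABA-A receptor genes and 2 GABA-B receptor genes. CD1 mice, an outbred stock with no other genotype and no treatment in the labels, gave both cochleae on postnatal day 2 (3 mice, P2), 5 (3 mice, P5) or 8 (4 mice, P8). Accessible DNA was mapped by ATAC-seq, which uses a transposase to tag open chromatin for sequencing. The nuclei were purified on a density gradient and no sort is described, so they came from all cell types of the dissected tissue. The authors deposited 1 peak list per age, and all differences between ages below lack a replicate check.

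Overlapping peaks of the 3 lists were merged into regions, and each region was given to its closest protein-coding gene, up to a distance of 100 kb (0 inside a gene). Of 64911 regions, 146 went to the receptor genes. At least 1 region was given to 28 of the 34 genes, and to 72.5% of all protein-coding genes. A region called at the earlier age and not at the later one is termed lost, and the reverse gained. The regions were chosen by the peak calls at the 3 ages, and the 34 genes were named with results of these lists known, so their counts are a description and carry no test. The 95% interval beside a share is Wilson's and covers counting error only. The place of a peak in its own list is given as a percentile of the authors' ranking value, with 100 at the top.

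Glutamate is the transmitter that inner hair cells release onto spiral ganglion neurons. AMPA, kainate and NMDA receptors are ion channels assembled from 4 subunits that open when glutamate binds, and NMDA receptors also need glycine or D-serine. Metabotropic glutamate receptors and GABA-B receptors act through G proteins, whereas GABA-A receptors are chloride channels. In the cochlea AMPA receptors carry most of the fast signal at the inner hair cell synapse, and GABA is among the transmitters of the efferent fibres that reach the organ of Corti before hearing begins.

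The promoters of the receptor genes show the main contrast in sequence. A RefSeq table (GRCm38.p6, the build of mm10) held promoter windows, from 250 bases before a transcription start to 50 after it, for 25 of the 34 genes. Gria1, Gria3, Grid1, Grik1, Grin2a, Grin2b, Grin3a, Grm4 and Grm5 were not matched. At P2 a peak overlapped the window of 9 of the 25 genes, which are Gria2, Gria4, Grik2, Grik3, Grin1, Grm2, Gabra2, Gabrb1 and Gabbr1. Over all protein-coding genes with a window, 54.5% were overlapped at P2. The 250 bases before the start are shown for 5 of these genes, where those bases lie outside annotated transcripts. They are 2 genes with a peak at P2 alone (Grin1 and Gabra2) and 3 with a peak at every age (Gria4, Grm2 and Gabbr1). Sequences are read on the strand of the gene, and capitals mark the bases inside the P2 peak.
Grin1, chr2:25319188-25319437, minus strand: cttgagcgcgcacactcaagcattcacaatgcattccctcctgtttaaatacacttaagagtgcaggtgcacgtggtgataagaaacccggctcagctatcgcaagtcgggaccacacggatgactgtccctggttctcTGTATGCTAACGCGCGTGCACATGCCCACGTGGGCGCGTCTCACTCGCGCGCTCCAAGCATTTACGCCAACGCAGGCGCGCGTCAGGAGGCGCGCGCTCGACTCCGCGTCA
Gabra2, chr5:71095850-71096099, minus strand: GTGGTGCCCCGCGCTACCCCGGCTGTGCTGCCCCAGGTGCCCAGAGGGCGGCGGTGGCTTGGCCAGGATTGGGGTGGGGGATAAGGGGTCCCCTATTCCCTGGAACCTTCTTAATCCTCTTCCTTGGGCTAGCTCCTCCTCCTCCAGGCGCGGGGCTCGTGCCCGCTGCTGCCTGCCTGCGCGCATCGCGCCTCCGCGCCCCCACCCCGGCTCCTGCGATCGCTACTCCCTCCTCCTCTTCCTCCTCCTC
Gria4, chr9:4796235-4796484, minus strand: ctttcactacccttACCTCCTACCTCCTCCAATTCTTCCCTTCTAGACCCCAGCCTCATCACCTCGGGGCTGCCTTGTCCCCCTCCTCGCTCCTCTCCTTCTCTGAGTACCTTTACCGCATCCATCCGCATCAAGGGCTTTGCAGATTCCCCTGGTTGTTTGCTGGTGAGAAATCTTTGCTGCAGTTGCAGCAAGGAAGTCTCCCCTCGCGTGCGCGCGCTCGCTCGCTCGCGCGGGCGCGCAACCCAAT
Grm2, chr9:106656110-106656359, minus strand: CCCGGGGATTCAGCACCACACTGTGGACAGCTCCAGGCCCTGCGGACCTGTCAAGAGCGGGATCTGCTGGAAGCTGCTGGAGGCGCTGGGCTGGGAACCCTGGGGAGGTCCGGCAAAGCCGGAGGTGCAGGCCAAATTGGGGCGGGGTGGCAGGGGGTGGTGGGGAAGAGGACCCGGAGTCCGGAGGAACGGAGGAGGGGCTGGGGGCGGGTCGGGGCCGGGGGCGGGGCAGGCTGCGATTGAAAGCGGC
Gabbr1, chr17:37045716-37045965, plus strand: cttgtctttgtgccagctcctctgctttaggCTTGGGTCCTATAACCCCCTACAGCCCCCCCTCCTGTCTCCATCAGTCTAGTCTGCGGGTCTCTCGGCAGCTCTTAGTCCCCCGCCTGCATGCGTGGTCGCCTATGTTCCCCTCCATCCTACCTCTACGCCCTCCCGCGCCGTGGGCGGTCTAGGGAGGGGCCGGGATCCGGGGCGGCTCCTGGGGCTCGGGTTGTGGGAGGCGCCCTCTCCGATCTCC

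The P2 peak covered all 250 bases before the start in Gabra2 and Grm2, 236 in Gria4, 219 in Gabbr1 and 111 in Grin1. All 5 sequences are rich in G and C, at 58.8% in Grin1 and Gria4, 66% in Gabbr1, 70% in Gabra2 and 71.2% in Grm2. The ratio of observed to expected CpG dinucleotides in the full 300-base window (250 before and 50 after the start) was 1.20 in Grin1, 0.72 in Gabra2, 0.66 in Gria4, 0.64 in Grm2 and 0.57 in Gabbr1. Taking the highest window of each gene, its median was 0.80 for the receptor genes with a peak at P2 and 0.52 for those without, against 0.80 and 0.22 over all genes.

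By P8 a peak no longer overlapped the windows of 5 of those 9 genes, Grik2, Grik3, Grin1, Gabra2 and Gabrb1 (55.6%, 26.7 to 81.1). Over all genes with a window overlapped at P2, 7.31% were no longer overlapped at P8. In whole tissue, fewer nuclei of a type and less open chromatin per nucleus cannot be told apart. The window of Grin1, which encodes the subunit that every NMDA receptor contains, was overlapped at P2 at percentile 49.3 and by no peak at P5 or P8. Grik2 and Grik3, which encode kainate receptor subunits able to form channels on their own, had P2 peaks there at percentiles 48.1 and 24.0, and none later. The peak of Gabra2, which encodes an alpha subunit of the GABA-A receptor, was at 16.8 and also confined to P2 among the 3 lists. These 4 P2 peaks lay in the lower part of their list, so none of them is counted when each list is limited to its upper 50%. With that limit 4 windows were overlapped at P2, and the 2 no longer overlapped at P8 were those of Gria4 and Grm2. The 7.31% of all genes covers peaks of every rank, and the share of all genes was not computed with that limit. The 2 shares are therefore not matched for rank.

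Peaks over 4 promoter windows were present at every age. For Gria2, whose product makes AMPA receptors nearly impermeable to calcium once its RNA is edited, percentiles were 77.3 at P2, 66.4 at P5 and 63.1 at P8. For Gria4, the AMPA subunit gene of many fast auditory synapses, they were 60.2, 40.7 and 34.5. Grm2, a presynaptic autoreceptor gene of group II, had 70.7, 48.0 and 35.7, and Gabbr1, the GABA-B subunit that binds GABA, had 75.6, 49.2 and 65.8. All 4 stood lower in the P8 list than in the P2 list.

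**Figure D1:**
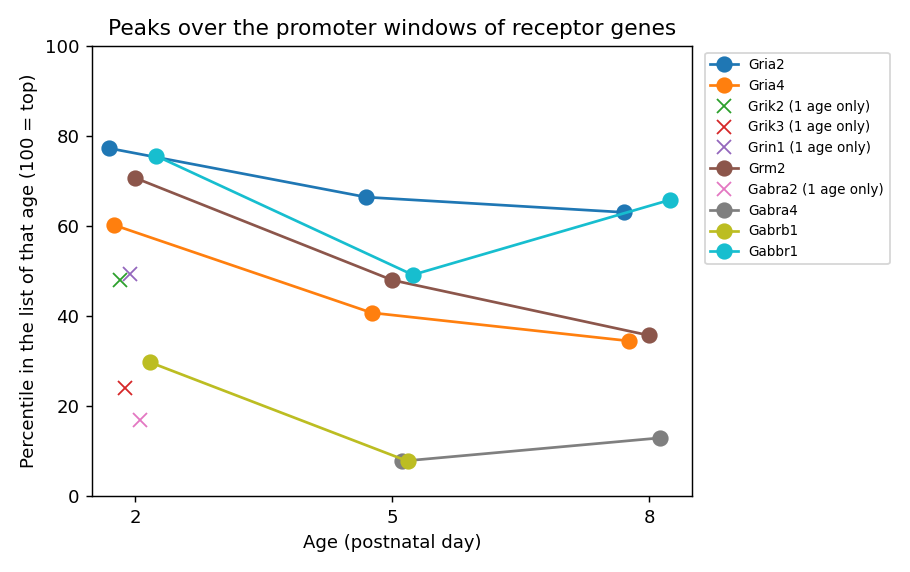
Percentile of the peak over each promoter window (vertical axis, 100 is the top of that age's list) at postnatal day 2, 5 and 8 (horizontal axis, points shifted slightly to the side for clarity). Circles joined by lines are genes with a peak at more than 1 age and crosses are genes with a peak at P2 alone. Grik2, Grik3, Grin1 and Gabra2 appear as crosses at 48.1, 24.0, 49.3 and 16.8, and Gria2, Gria4, Grm2 and Gabbr1 run through all 3 ages.

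Gabra4 and Gabrb1, which encode an alpha and a beta subunit of the GABA-A receptor, start side by side on chromosome 5 in opposite directions. The peak between them spanned chr5:71657738-71658236 in the P2 list, chr5:71657774-71658272 in the P5 list and chr5:71658040-71658538 in the P8 list. It therefore overlapped the Gabrb1 window alone at P2, both windows at P5 and the Gabra4 window alone at P8. The merging of overlapping peaks joins all 3 into 1 region that counts as kept, and its percentiles were low throughout, at 29.7, 7.8 and 12.9. The loss of the Gabrb1 window and the gain of the Gabra4 window are thus a move of 1 peak by less than its width.

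Several receptor genes had high-ranked peaks near a start but outside the window. Grik4 encodes a kainate subunit that needs a partner subunit to form a channel. A region of this gene had its middle at position -534, where 0 is the start base of the window. It also overlaps the annotated end of this minus-strand gene at chr9:42945000, so it does not lie outside the gene. Its percentiles were 92.5, 90.8 and 90.6, the highest of any receptor gene at each age. A region inside Grin2d, an NMDA subunit gene of early development, had its middle 506 bp after a start and was at 91.1, 90.2 and 85.6. A region with its middle at position -942 of Grm8, a group III metabotropic receptor gene, was at 86.5, 84.9 and 80.1. A region at 1254 bp after a start of Gabrb1 was at 73.8, 70.7 and 72.7. A window without a peak is therefore not a gene without an open region near its start.

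A search of the windows used 3 short motifs on both strands. They were the left and right parts of the element bound by REST, a repressor of neuronal genes, written TTCAGCACC and GGACAGC, and the Sp1 motif GGGGCGGGG. The left part stood in 1 of 32 receptor gene windows, that of Grm2, against 0.414% of 21263 windows of protein-coding genes. In Grm2 the right part followed on the same strand 7 bases later, from position -242 to -220, as shown here with both parts in capitals.
Grm2 promoter: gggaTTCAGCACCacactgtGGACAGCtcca
Both parts in this order and at most 12 bases apart occurred in 10 windows (0.047%) over all protein-coding genes. The right part alone occurred in 6.88% of all windows and in those of Gria2 and Grm2. The Sp1 motif occurred in 15.4% of all windows and in 6 of the 32, those of Grik5, Grin2c, Grm2, Grm3, Gabrg3 and Gabbr1. Of these, Grm2 and Gabbr1 had a peak. No searched motif overlapped another in the Grm2 window.

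Across all their regions, the receptor genes held fewer accessible regions at each later age. Their number went from 122 (P2) to 95 (P5) and 75 (P8). From P2 to P8, 61 of 122 were lost (50%, 41.3 to 58.7), where 31.7% of all 48113 P2 regions with a gene were lost. Gained regions made up 14 of the 75 at P8 (18.7%, 11.5 to 28.9), where the share over all regions was 19%. Taken by step, 46 of 122 were lost by P5 (37.7%, 29.6 to 46.6), against 23.8% of all regions, and 31 of the 95 P5 regions were lost by P8 (32.6%, 24.0 to 42.6), against 21.5%. Regions called at all 3 ages were 55 of 146 (37.7%), against 51.9% of all regions with a gene. The lists themselves shorten with age, from 52085 to 47683 to 43878 peaks, and at equal list length 43 of 97 receptor gene regions were lost (44.3%, 34.8 to 54.2) against 24.1% of all. Gained regions were then 21 of 75 (28.0%), against 23.6%.

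Of the 28 genes with regions, 20 had more lost than gained regions, 3 had more gained than lost (Gria2, Gabra4 and Gabbr2, each by 1) and 5 had equal numbers (Gria4, Grin3a, Grm2, Gabrb1 and Gabbr1). Among all 15868 genes that had regions, a net loss was seen in 38.1% and a net gain in 13.9%. A gene with few regions often shows neither, so these shares depend on the number of regions a gene has. The counts of net loss and net gain were 15 and 5 at equal list length and 10 and 2 with the upper 50% of each list. They were 8 and 3 when only changes also called at P5 were counted. The shares of all genes were not computed under these settings, so these counts cannot be set against them. The genes with the most regions were Grik4 (21), Grid1 (16), Grm4 (16), Gabbr2 (14) and Grin2b (10), which held 52.7% of the 146. Without these 5 genes, 30 of 61 regions were lost (49.2%, 37.1 to 61.4), and gained regions were 4 of 35 (11.4%, 4.54 to 25.9).

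**Figure D2:**
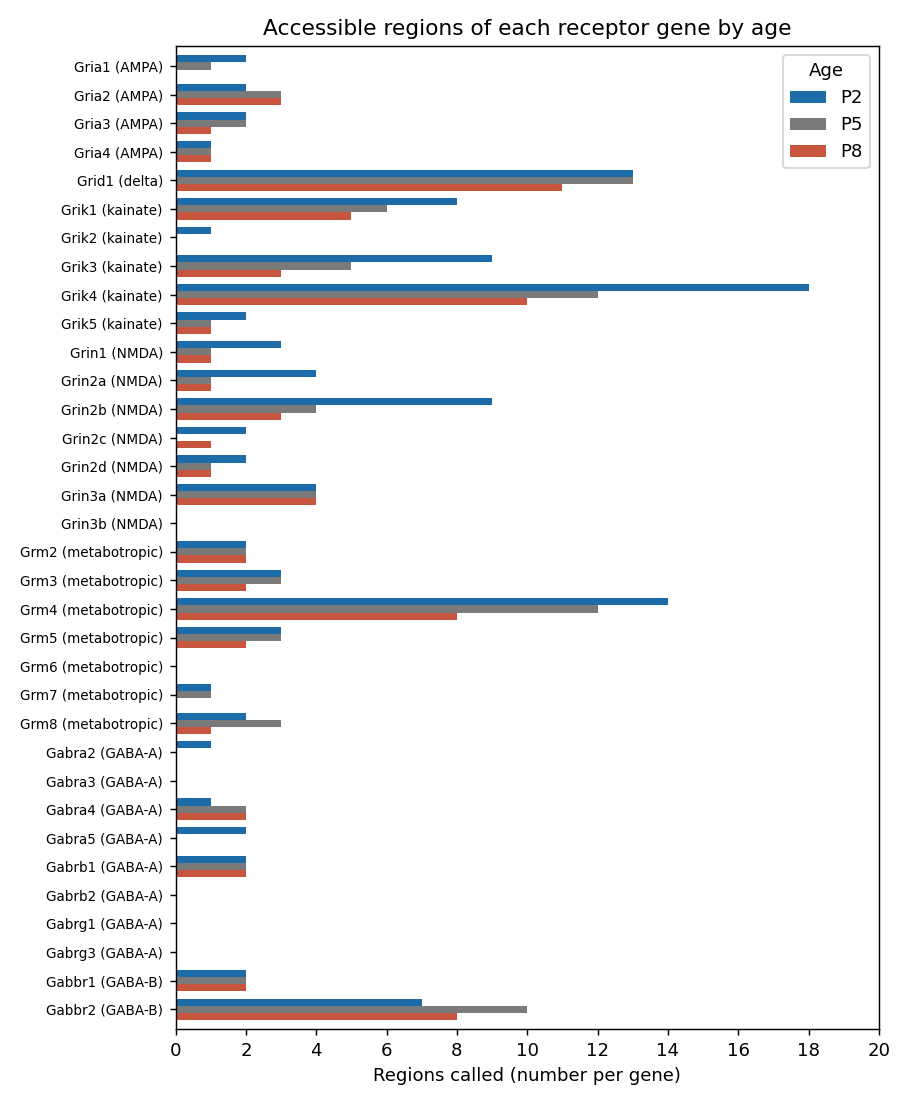
Number of regions called for each receptor gene (horizontal axis) at P2 (blue), P5 (grey) and P8 (red), with the receptor family in brackets. Grik4 has 18, 12 and 10 regions and Gabbr2 has 7, 10 and 8, and 6 genes have no bar because no region was given to them.

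The AMPA receptor genes had few regions, with 7 at P2 and P5 and 5 at P8. Gria1 had 2, 1 and 0, and both lost regions lay inside the gene, at chr11:57089492-57089990 (percentile 33.9 at P2 and 3.5 at P5) and chr11:57014359-57014857 (26.6 at P2). Gria2 had 2, 3 and 3, with the promoter peak, a region 65702 bp away called at every age, and a gained region at chr3:80673707-80674211 (22.0 at P5 and 4.5 at P8). Gria3, on the X chromosome, had 2, 2 and 1, and the region it kept lay 7986 bp outside the gene at percentiles 33.9, 48.98 and 54.8. The promoter region was the only one of Gria4. The family thus split between Gria1, which ended with none, and Gria2 and Gria4, which kept their P2 regions.

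Grid1 encodes the GluD1 subunit, which takes part in synapse organisation and does not work as a typical glutamate-gated channel. Its regions numbered 13 at P2 and P5 and 11 at P8, and 2 were gained and 4 lost. Of its 16 regions, 9 were called at every age, more than for any other receptor gene. The highest at P2 were at chr14:35074536-35075080 (70.1, 65.9 and 65.5) and chr14:34825840-34826385 (70.1, 65.2 and 36.8), both inside the gene. The lost region highest in the P2 list was chr14:34896294-34896793 (54.3 at P2 and 31.6 at P5), and the gained region highest at P8, chr14:35519243-35519789, stood at only 9.0. At equal list length Grid1 had 3 gained and 2 lost, so its direction depends on the length of the lists.

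Kainate receptor genes started with 38 regions, had 24 by P5 and ended with 19, and all 5 had a net loss. They lost 20 of 38 regions (52.6%, 37.3 to 67.5), against 31.7% of all regions, and gained 1. With only the upper 50% of each list they lost 2 of 10 (20%, 5.67 to 51.0), below the 28.4% of all regions under that limit, so their excess is not seen among the highest-ranked peaks. Grik4 had 18, 12 and 10 regions, spread over a gene of 427 kb, with 9 lost and 1 gained. The gained one was chr9:42626495-42626994 (2.7 at P5 and 26.9 at P8). Grik3 had 9, 5 and 3, with 6 lost and 0 gained, among them chr4:125696090-125696604 (60.5 at P2 and 17.2 at P5) and chr4:125645176-125645674 (48.9 at P2). Its lost share of 66.7% (35.4 to 87.9) exceeded that of 93.8% of the 1871 genes with at least 8 regions, whose median was 36.4%.

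Grik1, a kainate subunit gene that can form channels alone, had 8, 6 and 5 regions with 3 lost. A pair of regions deep inside Grik1, at chr16:88112657-88113174 and chr16:88173956-88174456, stood at 72.4 and 71.3 at P2, 86.5 and 87.0 at P5, and 79.3 and 83.4 at P8. These are among the kainate regions that ranked higher at P8 than at P2. Grik2 had 1, 0 and 0, so its promoter peak was its only region. Grik5, whose product needs a partner subunit, had 2, 1 and 1, and the region it kept, 754 bp outside the gene, passed from percentile 37.8 at P2 to 12.4 at P5 and 0.14 at P8.

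NMDA receptor genes held 24 regions at P2 and 11 at both P5 and P8, and their losses lay in the first step. From P2 to P5, 15 of 24 were lost (62.5%, 42.7 to 78.8), above the 23.8% of all regions. With every gene within 50 kb counted it was 18 of 54 (33.3%, 22.2 to 46.6), against 20.9% of all. From P5 to P8, 1 of 11 was lost (9.09%, 1.62 to 37.7), an interval that holds the 21.5% of all regions. At equal list length the counts were 11 of 19 and 0 of 10, against 18.6% and 17.6% of all regions. Counting only the upper 50% of each list, 4 of 8 were lost in the first step and 3 of 6 in the second. The shares of all regions were then 21.5% and 18.7%. Grin2b, the NMDA subunit gene that prevails early in brain development, had 9, 4 and 3 regions, with 7 lost and 1 gained. Its lost share of 77.8% (45.3 to 93.7) exceeded that of 98.2% of the genes with at least 8 regions. Grin2b and Grik3 were the highest of the receptor genes compared in this way. The same figure was 39.6% for Grid1, 51.7% for Grik1, 63.9% for Gabbr2, 73.7% for Grik4 and 86.8% for Grm4.

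Of the 7 regions lost at Grin2b, 6 were gone at P5, all at or below percentile 28.6 of the P2 list. They include a region at the gene end (chr6:136173439-136173937, 17.0) and 3 outside the gene. The region gained at chr6:135734293-135734798 stood at 18.1 at P5 and 46.9 at P8, and the region highest at P2, chr6:135907461-135907960, was called throughout (76.6, 72.7 and 50.8). Grin2a, the subunit gene that takes over from Grin2b in many maturing neurons, had 4, 1 and 1. Its lost region chr16:9994646-9995144 was the highest-ranked lost region of any receptor gene (65.3 at P2) and lies next to a kept region at chr16:9993627-9994159 (65.3, 18.7 and 43.1). Grin2b and Grin2a both had a net loss here.

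Grin1 had 3, 1 and 1 regions, and the second region it lost was inside the gene at chr2:25304948-25305446 (58.4 at P2). Grin2c had 2, 0 and 1, since chr11:115258057-115258559 was called at P2 (51.3) and P8 (1.5) and not at P5. Grin2d had 2, 1 and 1. Grin3a, which encodes a subunit that lowers calcium entry, had 4 regions at every age, with 1 gained (chr4:49688544-49689042, 29.3 at P5 and 45.5 at P8) and 1 lost. The region at the end of Grin3a, chr4:49845579-49846080, was called throughout (81.3, 74.2 and 73.6). No region was given to Grin3b.

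Metabotropic glutamate receptor genes held 25 regions at P2, 24 in the next list and 15 at P8. From P2 to P5, 5 of 25 were lost (20%, 8.86 to 39.1), an interval that holds the 23.8% of all regions. From P5 to P8, 11 of 24 were lost (45.8%, 27.9 to 64.9), above the 21.5% of all regions. At equal list length the counts were 4 of 18 and 10 of 22, against 18.6% and 17.6% of all regions. With only the upper 50% of each list they were 6 of 11 and 3 of 7, against 21.5% and 18.7% of all regions. The later timing of these losses thus does not hold among the highest-ranked peaks. The difference in timing between NMDA and metabotropic receptor genes was not tested.

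Grm4, a group III presynaptic receptor gene, held more regions than the other metabotropic receptor genes, with 14, 12 and 8, and 8 lost against 2 gained. Of its 16 regions, 11 lay outside the gene, and 2 of these lay toward Hmga1, the gene of a chromatin protein, so their target is uncertain. Its lost regions highest at P2 were chr17:27505356-27505854 (63.4), chr17:27392860-27393358 (54.9 at P2 and 18.6 at P5) and chr17:27466564-27467084 (52.0 and 37.5). At the lower-coordinate end of Grm4, chr17:27422585-27423174 was called at P5 (12.6) and at P8 (56.2), the highest P8 percentile among the gained regions of the receptor genes.

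The other metabotropic receptor genes had few regions. Grm2 had 2 at each age and Grm3, the other group II gene, had 3, 3 and 2. Grm5, a group I gene coupled to calcium release from stores, had 3, 3 and 2, with 1 gained region at chr7:88199114-88199612 (12.1 at P8) and 2 lost. Grm7 had 1, 1 and 0 and Grm8 had 2, 3 and 1; both are group III genes. No region was given to Grm6, the receptor gene of retinal ON bipolar cells.

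GABA-A receptor genes held 6 regions at P2 and 4 at both later ages. From P2 to P8 they lost 3 of 6 (50%, 18.8 to 81.2), an interval that holds the 31.7% of all regions. Gabra2 had 1, 0 and 0 and Gabra5 2, 0 and 0. The higher-ranked of the Gabra5 regions was chr7:57474093-57474591 (33.9 at P2). Gabra4 had 1, 2 and 2, with a gained region at chr5:71571548-71572063 (29.3 at P5 and 8.2 at P8), and Gabrb1 had 2 at each age. Gabra3, Gabrb2, Gabrg1 and Gabrg3 had none within the distance used. The 4 alpha and beta subunit genes with regions thus divided into Gabra2 and Gabra5, open at P2 alone, and Gabra4 and Gabrb1, open throughout.

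GABA-B receptors need both subunits. Their genes lost 3 of 9 P2 regions (33.3%, 12.1 to 64.6), near the 31.7% of all regions, and 4 of their 10 P8 regions were gained (40%, 16.8 to 68.7), an interval that holds the 19% of all regions. The obligate partner of Gabbr1, Gabbr2, started with 7 regions, had 10 at P5 and ended with 8, of which 4 were gained since P2, and 3 were lost. Its gained regions highest at P8 were chr4:46931618-46932125 (38.0 at P5 and 32.6 at P8), chr4:46827548-46828046 (31.8) and chr4:46727063-46727561 (23.0), all inside the gene and in the lower part of the list. Its lost regions were chr4:46684070-46684573 (47.8 at P2), chr4:46818631-46819129 (36.1) and chr4:46989838-46990337 (31.6). Only peaks with an IDR of at most 0.01 gave 2 gained and 4 lost, so the balance of Gabbr2 depends on the threshold. Gabbr1 kept both its regions, the promoter peak and chr17:37050315-37050873 (47.6, 49.7 and 49.6).

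**Figure D3:**
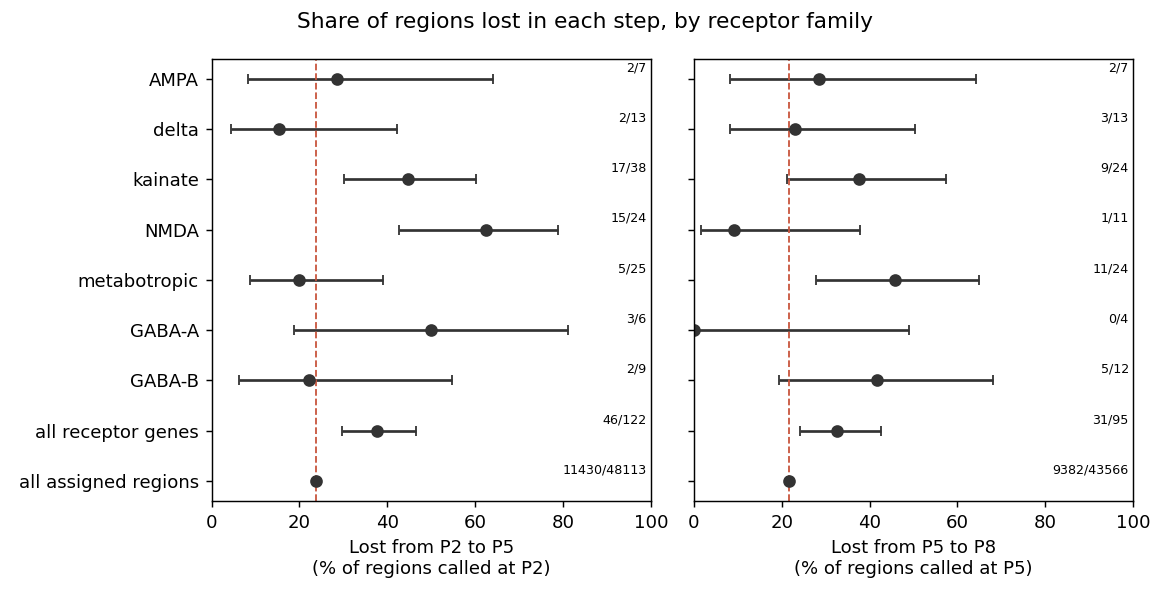
Share of regions lost from P2 to P5 (left, % of regions called at P2) and from P5 to P8 (right, % of regions called at P5) for each receptor family, with Wilson 95% intervals as bars and the counts at the right edge. The dashed red lines mark all regions with a gene, at 23.8% and 21.5%, and NMDA receptor genes stand at 62.5% on the left and 9.09% on the right.

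The regions of the receptor genes ranked below the average of their lists at every age. Their median percentiles in the P2, P5 and P8 lists were 36.2, 39.5 and 40.1, against 51.3, 51.4 and 51.2 over all regions with a gene. Low-ranked regions were lost more often in general, so the loss was compared within 4 classes of percentile in the P2 list. From 0 to 25, 26 of 37 receptor gene regions were lost (70.3%, 54.2 to 82.5), against 69.8% of all regions. From 25 to 50, 28 of 41 were lost (68.3%, 53.0 to 80.4), against 44.8% (43.9 to 45.7). From 50 to 75, 7 of 35 were lost (20%, 10.0 to 35.9), against 14.4%, and from 75 to 100 it was 0 of 9, which allows a share of up to 29.9% by the Wilson interval, against 1.07%. The excess over all regions was therefore found between the 25th and 50th percentile, and in the other classes the interval of the receptor genes held the value of all regions.

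**Figure D4:**
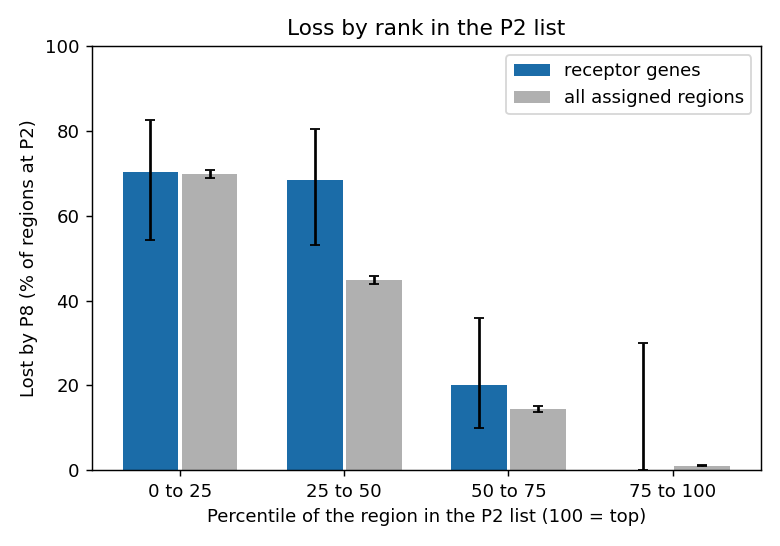
Share of P2 regions lost by P8 (vertical axis, %) in 4 classes of percentile in the P2 list (horizontal axis), for the receptor genes (blue) and for all regions with a gene (grey), with Wilson 95% intervals. The bars are alike in the lowest class (70.3% and 69.8%) and apart in the next (68.3% and 44.8%).

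Position also set the receptor genes apart from the rest. Of their 146 regions, 110 lay inside the gene (75.3%, 67.8 to 81.6), against 67.1% of all regions with a gene. Only 22 lay within 1 kb of a gene end (15.1%, 10.2 to 21.8), against 27.2% (26.9 to 27.6). Away from gene ends, 53 of 101 P2 regions were lost (52.5%, 42.8 to 61.9), against 38.6% of all such regions. At gene ends, 8 of 21 were lost (38.1%, 20.8 to 59.1), against 16.5%, and all 8 were already lost at P5. The distance limit touched few regions: the farthest kept lay 96.8 kb from Grm4 and was called at every age, and the nearest left out lay 102.1 kb from Grin2b and was called at P2 and P5.

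The 61 lost regions had a median P2 percentile of 26.6, and the 14 gained regions a median P8 percentile of 23.9. The 61 regions kept from P2 to P8 had medians of 55.7 at P2 and 43.1 at P8. Over all regions the medians were 23.2 for lost, 20.8 for gained, and 66.5 and 59.8 for kept regions, so the low rank of lost and gained regions is general. Of the 55 regions called at all ages, 40 stood lower in the P8 list than in the P2 list (72.7%), against 67.9% of all such regions. The median change was -7.64 percentile points, against -3.51. The largest drops were at chr14:34960149-34960665 in Grid1 (50.9 to 4.5), at the kept Grik5 region (37.8 to 0.14) and at the Grm2 promoter (70.7 to 35.7).

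**Figure D5:**
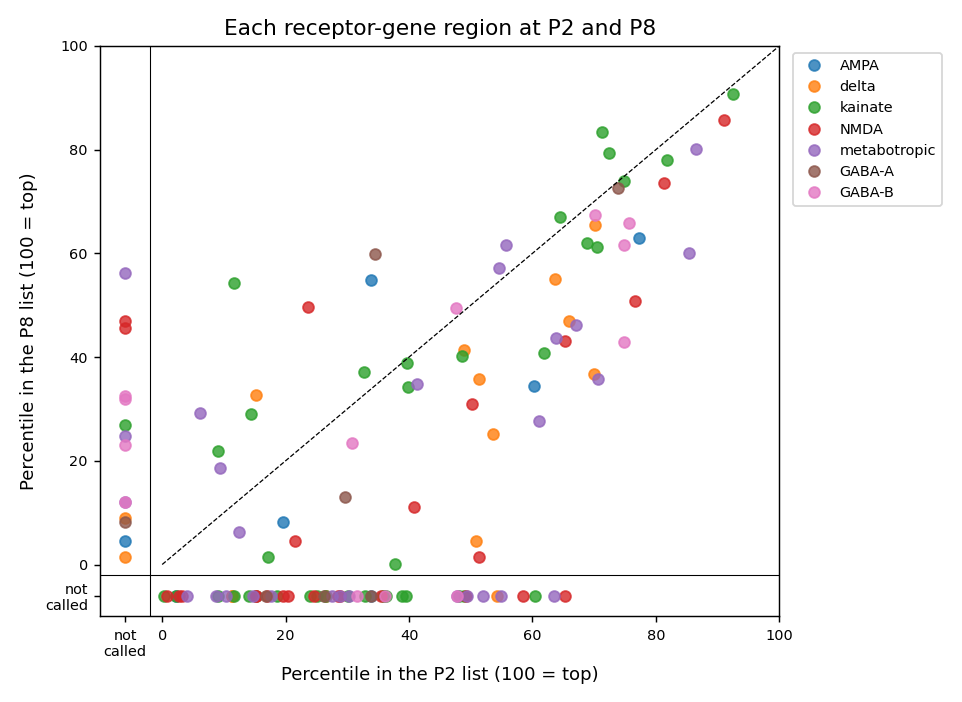
Percentile of each receptor gene region in the P2 list (horizontal axis) and in the P8 list (vertical axis), coloured by family, with a dashed line at equal percentiles. Points in the strip below 0 were not called at P8, points in the strip left of 0 were not called at P2, and most of the lost regions lie below the 50th percentile of P2.

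Lists by function held other genes of glutamate and GABA synapses, and also the acetylcholine, ATP and glycine receptor genes described at the end. Together their genes lost 128 of 286 P2 regions (44.8%, 39.1 to 50.5), against 31.7% of all regions. Gained regions were 39 of 197 at P8 (19.8%), near the 19% of all regions. The 14 genes of AMPA and kainate receptor auxiliary subunits lost 23 of 43 regions (53.5%, 38.9 to 67.5), with 10 genes at a net loss and 0 at a net gain. Cnih3, which encodes a cornichon protein that binds AMPA receptors, had 9 regions at P2 and 4 at P8, and Gsg1l, another AMPA receptor partner, had 10 and 6. Postsynaptic scaffold genes lost 60 of 125 (48%, 39.4 to 56.7), with 17 of 22 genes at a net loss and 1 at a net gain. In that list Dlgap1 had 0 gained and 9 lost and Grip1 3 and 10, Shank2 4 and 11, whereas Dlg4, the gene of PSD-95, had 2 and 0.

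Genes of transmitter synthesis and transport lost 25 of 68 regions (36.8%, 26.3 to 48.6), an interval that holds the 31.7% of all regions, with 8 of 17 genes at a net loss and 2 at a net gain. Gad1, which encodes a GABA-synthesising enzyme, had 6, 6 and 4 regions in the P2, P5 and P8 lists. The 13 remaining receptor genes of the same families lost 10 of 21 (47.6%, 28.3 to 67.6), an interval that also holds it, with 6 at a net loss, 1 at a net gain and 3 with no region. GABA-B auxiliary subunit genes lost 2 of 11 (18.2%, 5.14 to 47.7), again with 31.7% inside the interval, with 1 gene at a net gain and 1 at a net loss. The 2 chloride transporter genes, which set the direction of GABA-A currents, had 3 of 6 regions lost and 1 gained, with both Slc12a2 and Slc12a5 at a net loss.

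Marker genes of the cochlear cell types were open at all ages, with a few exceptions. Spiral ganglion neuron markers had 91, 85 and 67 regions in the P2, P5 and P8 lists, with 37 lost (40.7%, 31.1 to 50.9), and 2 of the 19, Nefh and Prph, had none. Hair cell markers had 36, 32 and 26 with 15 lost (41.7%, 27.1 to 57.8), Schwann and satellite glia markers 34, 23 and 24 with 11 lost (32.4%, 19.1 to 49.2), and markers of the supporting cells and cochlear epithelium 30, 29 and 30 with 11 lost (36.7%). Lateral wall markers had 41, 33 and 33 with 15 lost. Brain markers had 27, 18 and 21 with 10 lost (37.0%, 21.5 to 55.8), and Neurod6 had 3, 0 and 0. All regions with a gene also became fewer, from 48113 at P2 to 40542 at P8, and the 31.7% lost among them lies inside the interval of each of these marker lists. The part of these cell types in the result was not tested.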

How the data were processed

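ATAC-seq of cochlear nuclei from 10 CD1 mice (3 at P2, 3 at P5, 4 at P8) was summarised by the authors as 1 deposited peak list per age. MACS2 2.1.0, Subread 1.4.6-p3, Trimmomatic 0.33 and the build mm10 are named, without settings, in the submitters' processing notes. The 20 columns of each list are laid out as by the irreproducible discovery rate (IDR), a measure of how alike peaks rank in 2 inputs. The sources used here do not say which animals or pools formed the inputs, or how reads were shifted or filtered. The authors' deposited ranking value is a −log10 p-value and equals the smaller input value in every line. The deposited scaled IDR score was not used. All peaks are 499 bp wide with an IDR of at most 0.05. Depth per sample is unknown because read counts are not in the lists, and a deeper library can give a longer list. The lowest ranking value was 19.5, 13.5 and 11.4 in the P2, P5 and P8 lists.

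Peaks sharing at least 1 bp were merged with Python 3.11.15 and pandas 2.3.3, tested on simulated lists. Of all regions, 91.3% had 1 of 21887 protein-coding genes (RefSeq, GRCm38.p6) within 100 kb. A region inside several genes went to the one whose end was nearest. A region is at a gene end if its middle is at most 1 kb from an end of an annotated gene of any type. Promoter windows were compared with the peaks of each list, not with merged regions. Coordinates are printed counted from 1, with starts in the lists read as counted from 0. With 1 list per age no p-value was computed. The receptor genes and gene lists were chosen with earlier results of these data known. All 34 receptor genes are named. Of each other list, up to 2 genes per direction are named where gained minus lost regions came to 2 or more, or -2 or less, and other genes named were chosen after their values were seen. Some genes that this rule would name are not reported here. Up to 3 gained and 3 lost regions per family were taken by rank, with the highest region called at every age. The alternatives were other overlaps, thresholds, list lengths, distances and gene assignments.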

Additional observations from a re-analysis of the deposited data

How the results depend on the processing

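No paired analysis was possible because the labels give no replicate numbers and each age has 1 list. Of 224 alternative values for shares and counts, 198 stayed within the Wilson interval of the reported share or within 1.5 times the reported count. For families with few regions that interval is wide, so staying within it says little about stability. The GABA-A share lost by P8, for example, went from 50% (18.8 to 81.2) to 66.7% with a reciprocal overlap of 50% and still counted as within. The 50% lost by all receptor genes from P2 to P8 was 40.2% with every gene within 50 kb counted (27.5% of all regions), and between 44.3% and 52.6% under the other settings that changed overlap, threshold, list length, distance or ties. A separate setting counted only losses and gains also called at P5, so it leaves out regions already gone at P5. It gave 17.2% (12.3% of all regions), with 14.3% for AMPA, 18.4% for kainate, 4.17% for NMDA, 32% for metabotropic and 0% for GABA-A receptor genes. Gained regions were then 6.67% for metabotropic receptor genes, against 8.45% of all regions.

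With every gene within 50 kb counted, NMDA receptor genes lost 37.0% from P2 to P8 and 33.3% from P2 to P5. Of all regions, 27.5% and 20.9% were then lost. Metabotropic receptor genes gained 5.88% since P2, against 14.5% of all regions. With the upper 50% of each list, 28.4% of all regions were lost by P8, 21.5% by P5 and 18.7% from P5 to P8. Gained regions since P2 were then 15% of all. Kainate receptor genes lost 20% by P8, 20% by P5 and 0% from P5 to P8. Metabotropic receptor genes lost 54.5% by P5, and NMDA receptor genes lost 50% from P5 to P8 and gained 0%. GABA-A receptor genes lost 0% by P5 and by P8, and GABA-B receptor genes gained 0%. An IDR of at most 0.01 gave 0% gained for AMPA and GABA-A receptor genes, against 16.4% of all regions. At equal list length AMPA and NMDA receptor genes lost 0% from P5 to P8, against 17.6% of all regions. The cause was not tested, but these families then hold few regions. Without the 5 genes with the most regions, gains were 11.4%. Promoter windows lost numbered 5 at equal list length, 4 at an IDR of at most 0.01 and, with the upper 50%, 2 others (Gria4 and Grm2). The share of all genes was not computed for promoter windows under these settings. The alternatives on promoters, on the step from P5 to P8, on gene ends and without 5 genes were chosen after seeing the data.

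Of the 20 genes with a net loss, 18 were not reversed under any alternative, and 3 (Grik4, Grm4 and Grm5) stayed negative under all 8. The net gain of Gria2 was -1 at an IDR of at most 0.01, that of Gria3 was 1 with the upper 50%, that of Grid1 was 1 at equal list length, and that of Gabbr2 was -2 at an IDR of at most 0.01 and -1 with the upper 50%. With 1 list per age and no counts, no error between animals can be given.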

Other observations

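Some receptor gene regions ranked higher in the list at P8 than at P2. A region 28.7 kb outside Grik3, chr4:125461050-125461549, stood at percentile 11.7 at P2, 56.4 at P5 and 54.3 at P8, while Grik3 itself lost 6 of 9 regions. The region chr4:49754921-49755426 inside Grin3a stood at 23.7, 52.6 and 49.6, and chr5:71976456-71976955 inside Gabrb1 at 34.5, 53.6 and 59.95. These 3 had the highest increases among the 55 regions called at all ages. They were picked once their values were known, and the largest increase was 42.6 percentile points.

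Other ligand-gated channel genes of the cochlea had few regions. Chrna9, which encodes a subunit of the acetylcholine receptor of hair cells, had 4, 3 and 3 at P2, P5 and P8, and its partner Chrna10 had 1, 0 and 0. P2rx2, an ATP receptor gene, had 1, 1 and 2, and P2rx3 had 1, 0 and 0. Of the 9 genes of this list, which also held glycine receptor genes, 4 had a net loss, 1 a net gain and 2 no region (Glra2 and Glra4), and 5 of 12 P2 regions were lost (41.7%, 19.3 to 68.0). A net loss was seen in 38.1% of all genes that had regions, and 31.7% of all P2 regions were lost, a share inside that interval.

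Receptor gene regions called at P5 alone numbered 10 (6.85%, against 5.84% of all regions with a gene), and those called at P8 alone 5 (3.42%, against 7.20%). Grm8 and Gabbr2 held 5 of the former (2 and 3).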
